A study of Rattus norvegicus with 6 samples.

Results

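The major histocompatibility complex (MHC) of the rat is named RT1, and its genes and those of the antigen presentation machinery were followed in prostate RNA. Members were the 31 rows of the deposited gene table whose symbol starts with RT1- and 15 rows for named components (B2m, Cd74, Tap1, Tap2, Tapbp, Tapbpl, Psmb8, Psmb9, Psmb10, Psme1, Psme2, Ciita, Ifi30, Erap1 and Lgmn). They made 46 of 32883 rows, and 36 of the 46 lie on chromosome 20. The 6 bulk RNA-seq libraries came from prostates of 2 groups of rats. The hormone group (n = 3) carried 4 pellets under the skin for 4 weeks, each loaded with 25 mg testosterone plus 2.5 mg estradiol to bring about benign prostatic hyperplasia, and the control group (n = 3) had an incision that was stapled and no pellets. The condition label reads benign prostatic hyperplasia in the controls as well. The labels give neither strain, age nor lobe of the gland and do not state whether every library is a different rat, so p-values describe only the spread among these 6 tissues.

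MHC class I molecules sit on nearly all nucleated cells and consist of a heavy chain, the light chain B2m and a bound peptide. The peptides are cut by the proteasome, carried into the endoplasmic reticulum by the Tap1 and Tap2 transporter and fitted into the heavy chain with the help of tapasin. MHC class II molecules pair an alpha with a beta chain, are made mainly by antigen-presenting cells under the transactivator Ciita, and travel with the invariant chain Cd74 to endosomes, where peptides are loaded. Interferon-gamma is the classical inducer of both routes.

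RefSeq promoter windows (build GRCr8), from 250 bases before to 50 bases after the annotated start, were present for 40 of the 46 members. The windows of 4 members are shown, B2m because it is the member that passed the test, Tap1 and Psmb9 because they are neighbours whose windows overlap, and RT1-Da as the class II chain with the highest level per length. Capitals mark matches on either strand to the core of the interferon-stimulated response element (ISRE, searched as a pair of GAAA words with any 2 bases between them) and to the Y box, CCAAT, which reads ATTGG on the other strand. The windows lie, in the order shown, at chr3:129549080-129549379 (plus strand), chr20:4668494-4668793 (minus strand), chr20:4668750-4669049 (plus strand) and chr20:4515165-4515464 (plus strand).
B2m: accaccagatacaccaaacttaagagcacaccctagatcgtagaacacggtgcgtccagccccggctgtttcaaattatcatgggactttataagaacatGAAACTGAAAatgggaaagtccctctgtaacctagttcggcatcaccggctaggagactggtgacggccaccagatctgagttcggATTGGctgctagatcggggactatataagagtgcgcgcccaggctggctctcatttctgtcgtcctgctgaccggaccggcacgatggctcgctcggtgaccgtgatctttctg
Tap1: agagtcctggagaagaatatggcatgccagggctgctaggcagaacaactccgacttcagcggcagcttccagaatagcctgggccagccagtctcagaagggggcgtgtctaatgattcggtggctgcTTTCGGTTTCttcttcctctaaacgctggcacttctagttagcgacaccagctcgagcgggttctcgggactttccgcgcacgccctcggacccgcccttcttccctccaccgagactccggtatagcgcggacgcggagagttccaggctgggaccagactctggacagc
Psmb9: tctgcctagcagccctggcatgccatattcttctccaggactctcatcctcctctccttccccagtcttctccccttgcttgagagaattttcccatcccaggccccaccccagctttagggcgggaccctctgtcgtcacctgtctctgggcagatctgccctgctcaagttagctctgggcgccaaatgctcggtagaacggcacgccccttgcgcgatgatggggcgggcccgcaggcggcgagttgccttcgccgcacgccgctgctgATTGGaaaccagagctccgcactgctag
RT1-Da: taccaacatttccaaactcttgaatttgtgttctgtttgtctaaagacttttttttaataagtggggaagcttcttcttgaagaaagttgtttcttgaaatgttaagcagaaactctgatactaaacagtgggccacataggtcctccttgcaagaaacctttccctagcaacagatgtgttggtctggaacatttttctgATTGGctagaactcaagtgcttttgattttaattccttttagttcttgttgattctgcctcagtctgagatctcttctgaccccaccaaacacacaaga

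Counted from the annotated start, the B2m window held an ISRE core match at position -150 and a Y box at -64, and the Tap1 window an ISRE core match at -121. The Psmb9 window held a single Y box, at position 23, and the RT1-Da window a single Y box, at -49. The Tap1 and Psmb9 windows share 44 bases, and in the coordinates of the deposited table, whose build the sources used here do not name, 189 bases lie between the spans of both genes. The ISRE core was in 10 of the 40 member windows (25.0%), against 3.92% of 33469 windows of the same length. Besides B2m and Tap1, these were the windows of Tap2, Tapbp, Psmb8, Psmb10, Psme2, RT1-N3, RT1-S2 and RT1-S3, and the 2 matches in Tapbp overlap each other. The Y box was in 28 of 40 member windows (70.0%), against 37.5% of all windows. The STAT-type core TTCNNNGAA was in 2 of 40 (5.0%), RT1-M3-1 and Psmb8, against 8.87% of all windows. A match describes letters in a window and not a bound site.

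Total counts were 13744680 to 15949500 in hormone libraries and 12931982 to 15809858 in control libraries, and 17165 to 17741 genes had counts in each library. Levels below are TMM-scaled CPM, that is counts relative to the scaled library total, unless they are named as FPKM, the authors' depth-scaled value per length. A gene was called at a Benjamini-Hochberg adjusted p under 0.05 in edgeR's quasi-likelihood test, fitted over all 14003 genes that passed a filter on low counts. Of the 46 members, 39 passed that filter. RT1-T24-1 and RT1-N2 were under its level in at least 1 control and RT1-CE10 in a hormone library. Of the 7 members not tested, RT1-M4 and RT1-M6-2 were at 0 counts in all 6 libraries, RT1-M2 had up to 19 counts in a library, and RT1-M5, RT1-S2, RT1-Db2 and RT1-Ha had 0 to 7.

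B2m rose in hormone-treated prostate, and no other member passed the test. Of the 39 members tested, 1 was called higher, where 2.39% of all genes were, and 0 were called lower, where 0.886% of all genes were. At an unadjusted p under 0.05 in the edgeR test, 14 of the 39 were higher and 0 lower, where 12.1% and 10.6% of all genes were higher and lower. DESeq2 called 10 of the 39 higher and 0 lower, where it called 6.47% of all genes higher and 4.41% lower. The log2 fold change was above 0 for 34 of the 39 members, where it was for 49.9% of all genes, and its median was 0.62 over the members and -0.0015 over all genes. Without hormone 1 that median was 0.28 over 40 members tested, 25 of them above 0, and -0.0094 over all genes, with 0 members called where 0.691% of all genes were called higher and 0.148% lower. All 3 hormone values lay above all 3 control values for 12 of the 39, where 16.1% of all genes did so, and below them for 0, where 15.3% did so. The shares of all genes in the full fits apply equally to the groups and lists below. In bulk tissue, more cells of a type and more RNA per cell cannot be told apart.

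**Figure D1:**
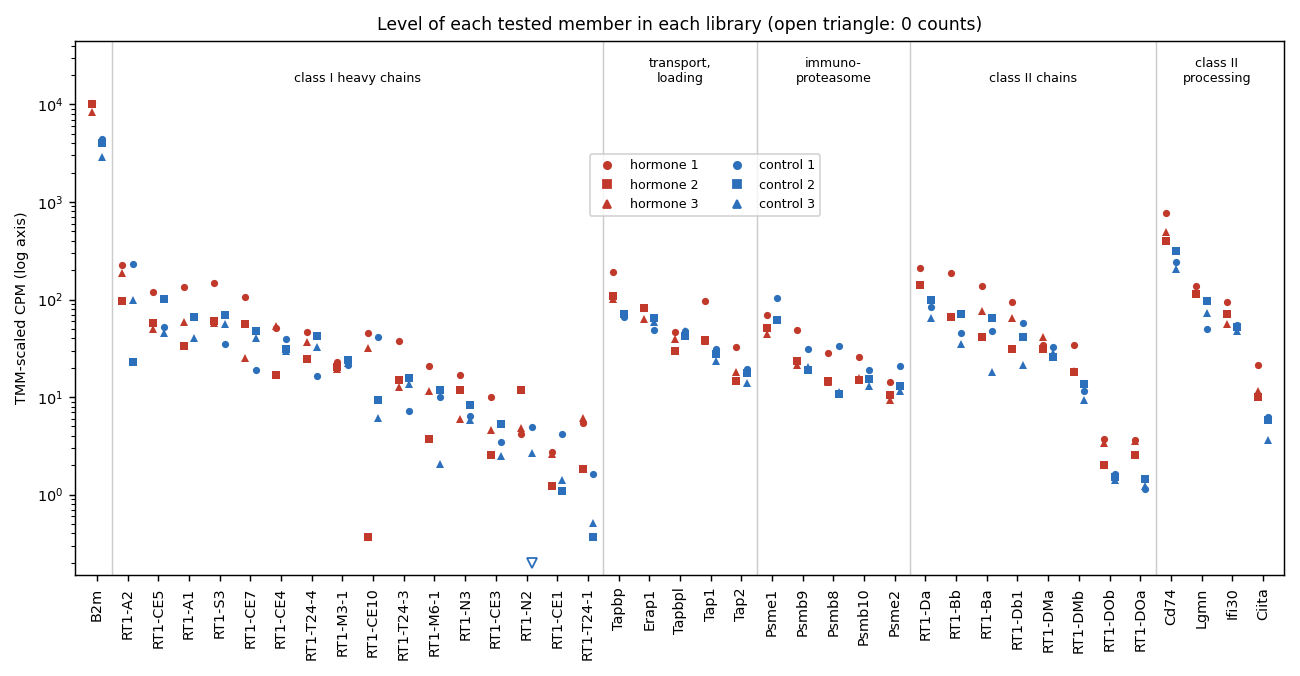
Level of the 39 tested members in each library as TMM-scaled CPM on a log axis, ordered by role, with hormone libraries (red) left of control libraries (blue). Circles, squares and triangles are libraries 1, 2 and 3, and the open triangle is a library with 0 counts (RT1-N2 in control 2). The 3 hormone values of B2m, 8413 CPM and above, lie over its control values of 4455 CPM and below, while nearly all class I heavy chains overlap between groups.

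B2m (ENSRNOG00000017123, chromosome 3, from 114087287 to 114093309 in the table's coordinates) had 10446, 10176 and 8413 CPM in hormone libraries 1, 2 and 3, against 4455, 4052 and 2894 CPM in controls 1, 2 and 3. The groups did not overlap, and hormone 1 and hormone 2 were close to each other. The means were 9678 ± 1104 CPM in hormone libraries and 3800 ± 810 CPM in controls (SD, n = 3 each), and the log2 fold change was 1.35 ± 0.24 (SE; edgeR adjusted p = 0.0316). B2m took 1.02%, 0.982% and 0.783% of all counts in hormone libraries 1, 2 and 3, against 0.483%, 0.422% and 0.291% in controls 1, 2 and 3. Ranked by counts, it was gene number 4 in each hormone library, against number 10, 9 and 16 in controls 1, 2 and 3.

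The B2m call did not survive the loss of most single libraries. The log2 fold change stayed between 1.19 and 1.48, while the edgeR adjusted p was 0.121 without hormone 1, 0.11 without hormone 2, 0.0851 without hormone 3, 0.104 without control 2 and 0.0597 without control 3. Only without control 1 was B2m still called (adjusted p = 0.0275). Calls over all genes, 458 in the full fit, also fell in most of these fits. They were 119, 114 and 111 without hormone 1, 2 and 3, and 64 without control 2. Without control 1 and control 3 they were 463 and 452. With limma on log2(FPKM + 1) the adjusted p of B2m was 0.0586, and 0 members were called.

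**Figure D2:**
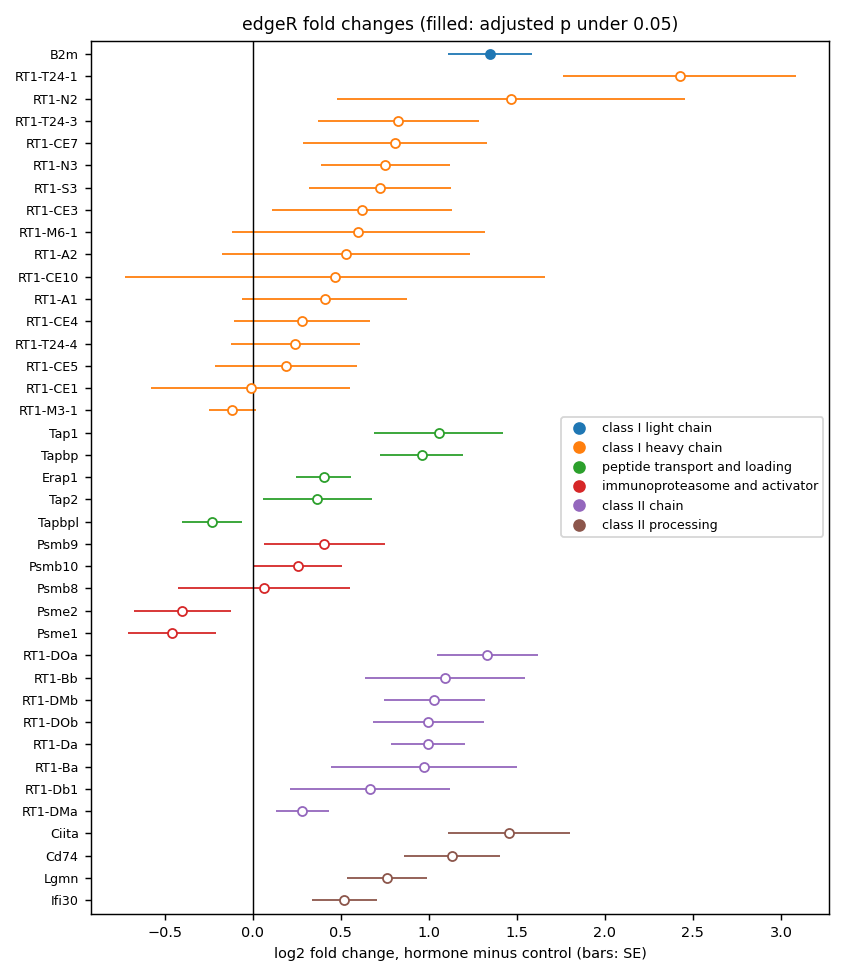
Log2 fold change (hormone minus control) of the 39 tested members with its standard error, coloured by role. The filled point is the member with an edgeR adjusted p under 0.05, B2m at 1.35. All 8 class II chains and all 4 class II processing genes lie right of 0, while the immunoproteasome and activator genes lie on both sides.

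The class I heavy chains, which hold the peptide, had no call. Of 21 heavy chain rows 16 were tested, and edgeR called 0 of them (1 higher and 0 lower at an unadjusted p under 0.05), while DESeq2 called RT1-T24-1 alone. The median log2 fold change of the 16 was 0.56. Summed over the 21 rows, heavy chains had 995, 413 and 571 CPM in hormone libraries 1, 2 and 3, against 559, 455 and 402 CPM in controls 1, 2 and 3. Hormone 1 was the highest library, but hormone 2 lay below control 1 and control 2. The summed means were 659 ± 301 CPM in hormone libraries and 472 ± 80.0 CPM in controls (SD, n = 3 each).

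For the 21 heavy chain rows, the ratio of light to heavy chain was higher in each hormone library than in any control. On the FPKM scale B2m was 14.1, 32.2 and 19.0 times the summed heavy chains in hormone libraries 1, 2 and 3, against 10.3, 12.2 and 9.50 times in controls 1, 2 and 3. The ratios did not overlap and varied more among hormone libraries, with means of 21.7 ± 9.35 in hormone libraries and 10.7 ± 1.41 in controls (SD, n = 3 each). The ratio was not tested, and it covers only the reads that the authors' counting gave to these 21 rows.

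**Figure D3:**
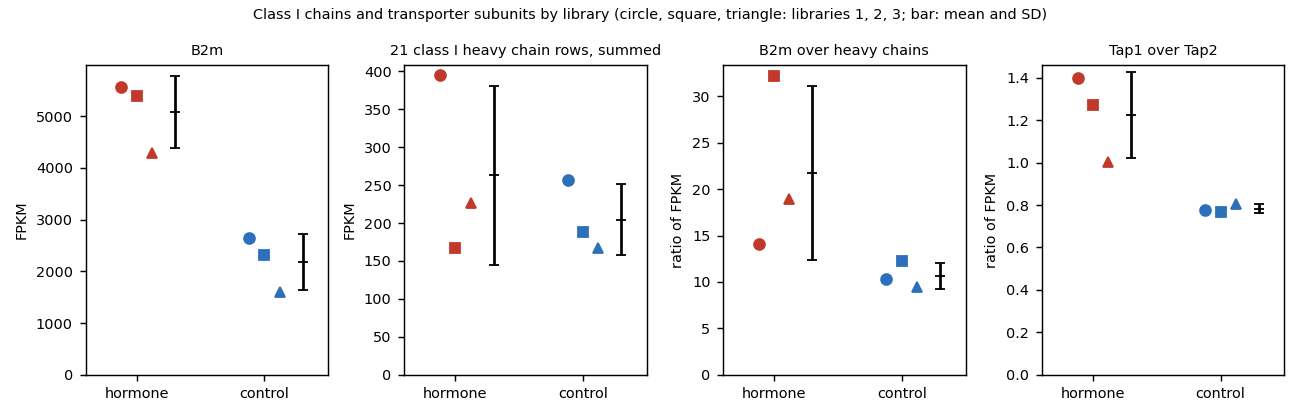
FPKM of B2m, summed FPKM of the 21 class I heavy chain rows, the ratio of both, and the ratio of Tap1 to Tap2 in each library, with hormone libraries left of controls and the mean and SD beside the points. The summed heavy chains overlap between groups. For these 21 rows the B2m to heavy chain ratio is 14.1 or more in hormone libraries and 12.2 or less in controls. With the class I row LOC103690108, which lies outside the rule, added to the sum, the ratios overlap.

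RT1-A2, a class Ia heavy chain, had the highest mean FPKM of the heavy chain rows (70.7 over the 6 libraries) and varied widely. It had 225, 96.4 and 188 CPM in hormone libraries 1, 2 and 3, against 231, 22.9 and 98.8 CPM in controls 1, 2 and 3 (log2 fold change 0.53 ± 0.70, SE; edgeR adjusted p = 0.682). Control 1 was the highest of the 6 libraries and control 2 the lowest. RT1-A1, whose span in the table contains that of RT1-A2, had 75.8 ± 52.9 CPM in hormone libraries and 57.2 ± 14.4 CPM in controls (SD, n = 3 each; log2 fold change 0.41). That estimate was -0.31 without hormone 1.

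The RT1-CE rows, further class I genes, also overlapped between groups. RT1-CE5 had 75.4 ± 38.5 CPM in hormone libraries and 66.2 ± 29.6 CPM in controls (SD, n = 3 each; log2 fold change 0.19). RT1-CE7 had 62.3 ± 40.7 CPM in hormone libraries and 35.6 ± 14.95 CPM in controls (log2 fold change 0.81, edgeR adjusted p = 0.387), with a log2 fold change of 0.18 without hormone 1 and 0.50 without control 1. RT1-CE4 had 40.2 ± 20.3 CPM in hormone libraries and 33.2 ± 5.03 CPM in controls (log2 fold change 0.28). RT1-CE10 had 44.9, 0.363 and 32.2 CPM in hormone libraries 1, 2 and 3, against 40.9, 9.29 and 6.10 CPM in controls 1, 2 and 3. Hormone 2 was nearly without it, at 5 counts, while hormone 1 and control 1 were alike. Its biological coefficient of variation (BCV, the spread between replicates beyond counting error) was 101%, the highest of the tested members, and its log2 fold change was 0.47 ± 1.20 (SE). RT1-CE3 and RT1-CE1, at mean FPKM of 3.89 and 0.81, had log2 fold changes of 0.62 and -0.01.

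Among the class Ib rows, RT1-T24-1 had the highest log2 fold change of the members and was the only heavy chain of the 16 tested whose groups did not overlap. It had 5.47, 1.82 and 6.09 CPM in hormone libraries 1, 2 and 3, against 1.64, 0.364 and 0.513 CPM in controls 1, 2 and 3 (log2 fold change 2.42 ± 0.66, SE; edgeR adjusted p = 0.0947; DESeq2 adjusted p = 0.00615). Hormone 2 and control 1 were close, and controls 2 and 3 were below the level of the low-count filter. The span of RT1-T24-1 overlaps that of AABR07044364.1, a class I row outside the rule. AABR07044364.1 had 3.93, 2.11 and 3.52 CPM in hormone libraries 1, 2 and 3, against 2.00, 0.182 and 1.09 CPM in controls 1, 2 and 3. Its groups did not overlap either (log2 fold change 1.56, edgeR adjusted p = 0.213). RT1-S3 had 146, 59.8 and 57.7 CPM in hormone libraries 1, 2 and 3, against 34.7, 68.8 and 56.5 CPM in controls 1, 2 and 3. Hormone 1 stood far above the other libraries, which were mixed (log2 fold change 0.72, edgeR adjusted p = 0.329; 0.13 on the log2 scale without hormone 1). RT1-T24-3 had 21.6 ± 13.6 CPM in hormone libraries and 12.2 ± 4.40 CPM in controls, and RT1-T24-4 had 36.0 ± 11.3 CPM in hormone libraries and 30.4 ± 13.3 CPM in controls (SD, n = 3 each).

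RT1-M3-1, a class Ib chain whose mouse counterpart H2-M3 presents N-formylated peptides, varied least of the tested members, with a BCV of 14.9%. It had 22.9, 20.5 and 19.5 CPM in hormone libraries 1, 2 and 3, against 21.5, 24.1 and 22.6 CPM in controls 1, 2 and 3 (log2 fold change -0.12 ± 0.13, SE; edgeR adjusted p = 0.626). RT1-N3 had 11.5 ± 5.40 CPM in hormone libraries and 6.84 ± 1.37 CPM in controls (SD, n = 3 each; log2 fold change 0.75, edgeR adjusted p = 0.265). RT1-N2 had 4.18, 11.9 and 4.77 CPM in hormone libraries 1, 2 and 3, against 4.92, 0 and 2.70 CPM in controls 1, 2 and 3. The 0 in control 2 allows up to 0.182 CPM for counting error alone (3 counts), well below the 4.92 CPM of control 1 (69 counts). RT1-M6-1, whose span overlaps the non-member Znrd1as1, had 12.0 ± 8.52 CPM in hormone libraries and 7.94 ± 5.18 CPM in controls.

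The make-up of the heavy chain counts differed between single libraries of the same group. RT1-A2 held 22.6%, 23.3% and 32.9% of them in hormone libraries 1, 2 and 3, against 41.3%, 5.04% and 24.6% in controls 1, 2 and 3. It led in every library except control 2, where RT1-CE5 led with 22.0%. RT1-CE10 held 4.51%, 0.0880% and 5.64% in hormone libraries 1, 2 and 3, against 7.31%, 2.04% and 1.52% in controls 1, 2 and 3. The median BCV was 41.8% over the 16 tested heavy chains, 25.9% over the 8 tested class II chains and 19.4% over all genes tested.

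**Figure D4:**
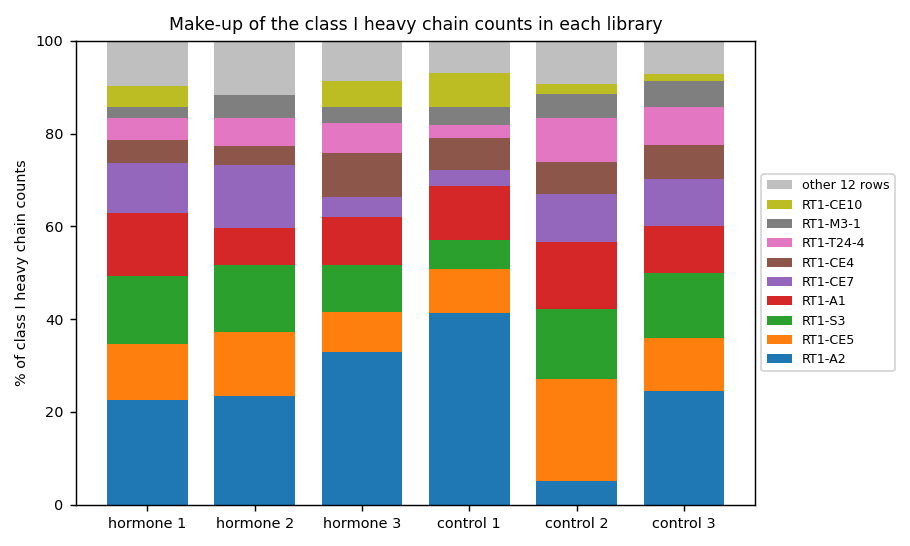
Share of each class I heavy chain row in the heavy chain counts of each library, in percent, with hormone libraries left of controls, 9 rows in colour and the other 12 rows together in light grey. RT1-A2 holds 41.3% in control 1 and 5.04% in control 2, and RT1-CE10 almost disappears in hormone 2 (0.0880%).

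Single heavy chain rows are uncertain as genes. The spans of 9 class I rows overlap another member, those of RT1-CE1, RT1-CE4 and RT1-CE7 run across many other genes, and the sources used here do not say how reads fitting several near-identical copies were counted. The table holds 10 further rows whose description names the MHC or histocompatibility and which the rule leaves out. LOC103690108, described as a non-RT1.A class I chain, had 141, 112 and 74.5 CPM in hormone libraries 1, 2 and 3, against 153, 12.0 and 6.93 CPM in controls 1, 2 and 3 (edgeR adjusted p = 0.626). Control 1, also the highest library for RT1-A2, stood with the hormone libraries. LOC100364500, described as like RT1-CE11, had 30.0 ± 19.9 CPM in hormone libraries and 22.2 ± 6.04 CPM in controls (SD, n = 3 each).

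In peptide transport and loading, edgeR called 0 of 5 members (3 higher and 0 lower at an unadjusted p under 0.05), DESeq2 called Tap1 and Tapbp higher, and the median log2 fold change was 0.40. Tap1 (ENSRNOG00000000457, chromosome 20, from 3979035 to 3989669), a transporter subunit, had 95.9, 38.2 and 37.8 CPM in hormone libraries 1, 2 and 3, against 31.3, 27.9 and 23.6 CPM in controls 1, 2 and 3. The groups did not overlap, and hormone 1 stood far above the rest. The log2 fold change was 1.06 ± 0.37 (SE; edgeR adjusted p = 0.153; DESeq2 adjusted p = 0.045), and 0.46 without hormone 1. Tap2, the partner subunit, had 33.0, 14.5 and 18.1 CPM in hormone libraries 1, 2 and 3, against 19.4, 17.5 and 14.1 CPM in controls 1, 2 and 3, with overlap between groups (log2 fold change 0.37, edgeR adjusted p = 0.506, and -0.06 on the log2 scale without hormone 1). On the FPKM scale Tap1 was 1.40, 1.27 and 1.00 times Tap2 in hormone libraries 1, 2 and 3, against 0.775, 0.767 and 0.807 times in controls 1, 2 and 3. These ratios did not overlap and were not tested.

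Tapbp, or tapasin, bridges the transporter and the empty class I molecule. It had 190, 110 and 102 CPM in hormone libraries 1, 2 and 3, against 65.4, 70.2 and 71.4 CPM in controls 1, 2 and 3. All hormone values lay above a narrow control range (log2 fold change 0.96 ± 0.24, SE; edgeR adjusted p = 0.0731; DESeq2 adjusted p = 0.00475), and the log2 fold change was 0.62 without hormone 1. Tapbpl, a tapasin-related peptide editor, had 38.6 ± 8.43 CPM in hormone libraries and 45.4 ± 3.03 CPM in controls (SD, n = 3 each; log2 fold change -0.23, edgeR adjusted p = 0.444). Erap1, the aminopeptidase that trims peptides in the endoplasmic reticulum, had 75.6 ± 11.3 CPM in hormone libraries and 57.2 ± 8.09 CPM in controls (log2 fold change 0.40, edgeR adjusted p = 0.188).

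The general chaperones used in class I loading had 0 of 6 genes called by edgeR (0 at an unadjusted p under 0.05) or by DESeq2, and a median log2 fold change of -0.05. The lowest p-values belonged to Uggt1, which checks glycoprotein folding (log2 fold change 0.39, edgeR adjusted p = 0.295), to calreticulin, Calr (-0.21, adjusted p = 0.59), and to the disulphide isomerase Pdia3 (-0.07, adjusted p = 0.864). Class I-like molecules not named RT1 had 0 of 5 tested genes called by edgeR (0 at an unadjusted p under 0.05) or by DESeq2, and a median of 0.06. Their lowest p-values belonged to the lipid-presenting Cd1d1 (log2 fold change 0.52, edgeR adjusted p = 0.377), to Mr1, which presents microbial metabolites (0.14, adjusted p = 0.742), and to the IgG receptor Fcgrt (0.06, adjusted p = 0.826).

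The immunoproteasome and activator genes showed no call in either direction. Of 5 members, edgeR called 0 (0 at an unadjusted p under 0.05), DESeq2 called 0, and the median log2 fold change was 0.06. Psmb9 (ENSRNOG00000000459, chromosome 20, from 3973420 to 3978845), a catalytic subunit, had 48.2, 23.4 and 21.3 CPM in hormone libraries 1, 2 and 3, against 31.0, 19.1 and 20.2 CPM in controls 1, 2 and 3. Hormone 1 was the highest library and the groups overlapped (log2 fold change 0.40, edgeR adjusted p = 0.51). Psmb8, a further catalytic subunit, had 28.2, 14.7 and 14.3 CPM in hormone libraries 1, 2 and 3, against 33.1, 10.6 and 11.2 CPM in controls 1, 2 and 3, with control 1 highest (log2 fold change 0.06, edgeR adjusted p = 0.952). Psmb10 had 18.8 ± 5.90 CPM in hormone libraries and 15.8 ± 2.92 CPM in controls (SD, n = 3 each; log2 fold change 0.26). The activator subunits Psme1 and Psme2, which cap the proteasome, had log2 fold changes of -0.46 and -0.40 (edgeR adjusted p = 0.315 and 0.414).

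Each inducible subunit takes the place of a constitutive one, so the pairs were set side by side on the FPKM scale. Psmb9 was 0.549, 0.254 and 0.299 times Psmb6 in hormone libraries 1, 2 and 3, against 0.294, 0.168 and 0.171 times in controls 1, 2 and 3. Hormone 2 lay below control 1, so the ratios overlapped. Psmb8 was 0.0879 ± 0.0369 times Psmb5 in hormone libraries and 0.0688 ± 0.0379 times in controls, and Psmb10 was 0.498 ± 0.172 times Psmb7 in hormone libraries and 0.402 ± 0.0873 times in controls (SD, n = 3 each). The ratios were not tested. The constitutive proteasome list had 0 of 16 genes called by edgeR (0 higher and 5 lower at an unadjusted p under 0.05; DESeq2 called Psma6 lower), 14 of 16 log2 fold changes below 0 and a median of -0.18. Its lowest p-values belonged to the ring subunits Psma6 (log2 fold change -0.38, edgeR adjusted p = 0.105), Psmb6 (-0.42, adjusted p = 0.123) and Psmb3 (-0.53, adjusted p = 0.14).

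The class II chains were above 0 in log2 fold change for 8 of 8 tested rows, with a median of 1.00 and 0 calls in edgeR (5 higher and 0 lower at an unadjusted p under 0.05). DESeq2 called RT1-Da, RT1-DMb and RT1-DOa higher. Over all genes, 12.1% were higher at that unadjusted p in edgeR, and DESeq2 called 6.47% higher. RT1-Da (ENSRNOG00000032844, chromosome 20, from 4127644 to 4132616), the alpha chain of the RT1-D molecule, had 209, 142 and 142 CPM in hormone libraries 1, 2 and 3, against 84.0, 98.8 and 64.7 CPM in controls 1, 2 and 3. The groups did not overlap, and hormone 2 and hormone 3 were alike. The means were 164 ± 38.8 CPM in hormone libraries and 82.5 ± 17.1 CPM in controls (SD, n = 3 each), and the log2 fold change was 0.99 ± 0.21 (SE; edgeR adjusted p = 0.0532; DESeq2 adjusted p = 0.000897), and 0.78 without hormone 1. Its partner RT1-Db1 had 63.3 ± 31.8 CPM in hormone libraries and 39.9 ± 18.0 CPM in controls, with overlap (log2 fold change 0.67, edgeR adjusted p = 0.412). A further beta row, RT1-Db2, had 1 count in each hormone library and 0 in each control.

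RT1-Ba and RT1-Bb, the chains of the RT1-B molecule, were spread wider. RT1-Ba had 137, 41.4 and 75.5 CPM in hormone libraries 1, 2 and 3, against 47.4, 64.0 and 18.0 CPM in controls 1, 2 and 3 (log2 fold change 0.97, edgeR adjusted p = 0.316). RT1-Bb had 188, 65.5 and 66.8 CPM in hormone libraries 1, 2 and 3, against 45.0, 70.6 and 34.8 CPM in controls 1, 2 and 3 (log2 fold change 1.09, edgeR adjusted p = 0.211). In both genes hormone 1 was far above the rest and hormone 2 lay below control 2. Without hormone 1 the log2 fold change was 0.44 for RT1-Ba and 0.40 for RT1-Bb, and without control 3 it was 0.60 for RT1-Ba.

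The RT1-DM molecule exchanges peptides in class II molecules, and RT1-DO modulates RT1-DM. RT1-DMb had 34.2, 18.1 and 18.5 CPM in hormone libraries 1, 2 and 3, against 11.6, 13.7 and 9.37 CPM in controls 1, 2 and 3, without overlap (log2 fold change 1.03 ± 0.29, SE; edgeR adjusted p = 0.0987; DESeq2 adjusted p = 0.0146). RT1-DMa had 35.3 ± 5.09 CPM in hormone libraries and 29.0 ± 3.38 CPM in controls (SD, n = 3 each; log2 fold change 0.28, edgeR adjusted p = 0.314). With the counts of LOC108348139 and LOC108348072, rows described as further DM chains, added to RT1-DMb and RT1-DMa, the log2 fold changes were 1.07 and 0.33. RT1-DOa, though low, had 3.60, 2.54 and 3.52 CPM in hormone libraries 1, 2 and 3, against 1.14, 1.46 and 1.22 CPM in controls 1, 2 and 3. The groups did not overlap (log2 fold change 1.33 ± 0.29, SE; edgeR adjusted p = 0.0538; DESeq2 adjusted p = 0.00854). RT1-DOb had 3.04 ± 0.893 CPM in hormone libraries and 1.52 ± 0.115 CPM in controls, also without overlap (log2 fold change 1.00, edgeR adjusted p = 0.131).

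The class II processing genes lay above the controls in every hormone library, for 4 of 4 members, with a median log2 fold change of 0.95 and 0 calls in edgeR (4 higher and 0 lower at an unadjusted p under 0.05). DESeq2 called Cd74, Ciita and Lgmn higher. Over all genes, 16.1% had all 3 hormone values above all 3 control values. At that unadjusted p in edgeR 12.1% of all genes were higher, and DESeq2 called 6.47% higher. Cd74 (ENSRNOG00000018735, chromosome 18, from 56071478 to 56080849) had 774, 402 and 487 CPM in hormone libraries 1, 2 and 3, against 245, 311 and 204 CPM in controls 1, 2 and 3, with hormone 1 far above the rest (log2 fold change 1.13 ± 0.27, SE; edgeR adjusted p = 0.0696; DESeq2 adjusted p = 0.00163; log2 fold change 0.81 without hormone 1). On the FPKM scale Cd74 was 6.47 ± 0.864 times RT1-Da in hormone libraries and 5.98 ± 0.267 times in controls (SD, n = 3 each), and these ratios overlapped. Ciita had 21.3, 10.1 and 11.6 CPM in hormone libraries 1, 2 and 3, against 6.28, 5.83 and 3.59 CPM in controls 1, 2 and 3. Hormone 1 was again the highest (log2 fold change 1.45 ± 0.35, SE; edgeR adjusted p = 0.0688; DESeq2 adjusted p = 0.00219).

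Ifi30, the thiol reductase that opens disulphide bonds of antigens, had 94.4, 71.0 and 56.7 CPM in hormone libraries 1, 2 and 3, against 54.3, 52.7 and 47.9 CPM in controls 1, 2 and 3, where hormone 3 and control 1 were close (log2 fold change 0.52, edgeR adjusted p = 0.16). Lgmn, the endosomal protease legumain, had 136, 113 and 123 CPM in hormone libraries 1, 2 and 3, against 50.3, 97.2 and 72.1 CPM in controls 1, 2 and 3. Here the hormone libraries were near each other and the controls were spread (log2 fold change 0.76 ± 0.23, SE; edgeR adjusted p = 0.114; DESeq2 adjusted p = 0.0333). Other endosomal genes had 0 of 10 tested called by edgeR (5 higher and 0 lower at an unadjusted p under 0.05; DESeq2 called 4 higher and 0 lower) and a median log2 fold change of 0.49. Their lowest p-values belonged to the cathepsins Ctsl (0.53, edgeR adjusted p = 0.0542), Ctsb (0.72, adjusted p = 0.0925) and Ctsz (1.25, adjusted p = 0.0979).

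Genes upstream of MHC transcription moved in both directions, with more of them above 0 than below. Of 18 rows on interferon-gamma signalling and MHC transcription factors 16 were tested. The test in edgeR called 1 higher and 1 lower, where 2.39% and 0.886% of all genes were. DESeq2 called 3 higher (Jak2, Irf8 and Nlrc5) and 1 lower (Ifngr1). The log2 fold change was above 0 for 11 and below 0 for 5, with a median of 0.33. At an unadjusted p under 0.05 in edgeR 6 were higher and 2 lower, where 12.1% and 10.6% of all genes were. Ifngr1, the ligand-binding chain of the interferon-gamma receptor, fell to 222, 207 and 231 CPM in hormone libraries 1, 2 and 3, against 397, 390 and 408 CPM in controls 1, 2 and 3 (log2 fold change -0.86 ± 0.11, SE; edgeR adjusted p = 0.0129). Jak2, a kinase of the same receptor, rose to 145, 114 and 101 CPM in hormone libraries 1, 2 and 3, against 74.0, 62.4 and 56.8 CPM in controls 1, 2 and 3 (log2 fold change 0.90 ± 0.17, SE; edgeR adjusted p = 0.034). Neither gene overlapped between groups. Irf8, a transcription factor of myeloid and B cells, had 76.5, 40.4 and 39.6 CPM in hormone libraries 1, 2 and 3, against 24.0, 20.3 and 15.3 CPM in controls 1, 2 and 3 (log2 fold change 1.39, edgeR adjusted p = 0.0515). Nlrc5 had 31.7, 12.8 and 13.7 CPM in hormone libraries 1, 2 and 3, against 7.63, 6.68 and 7.12 CPM in controls 1, 2 and 3. Its groups did not overlap (log2 fold change 1.44, edgeR adjusted p = 0.0765). Ifng itself was not tested, at no more than 0.322 CPM in hormone libraries and 0.128 CPM in controls.

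Hormone 1 was the highest hormone library for most members. This held for 34 of 39 tested members (87.2%), where it held for 36.7% of all genes, and hormone 1 was the highest of all 6 libraries for 27 of 39 (69.2%), where it was for 20.5% of all genes. For B2m the log2 fold change was 1.29 without hormone 1.

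Leukocyte markers had higher summed levels in the hormone libraries with 0 genes called by edgeR, and their part in the results was not tested. The 7 pan-leukocyte markers summed to 393, 224 and 241 CPM in hormone libraries 1, 2 and 3, against 174, 176 and 116 CPM in controls 1, 2 and 3, with 7 of 7 log2 fold changes above 0, a median of 0.89 and 0 calls in edgeR (6 higher at an unadjusted p under 0.05; DESeq2 called 3 higher). The lowest p-values belonged to Ptprc, which encodes CD45 (log2 fold change 1.15, edgeR adjusted p = 0.0685), Laptm5 (0.93, adjusted p = 0.0871) and Fcer1g (0.89, adjusted p = 0.103). The 14 macrophage and dendritic cell markers summed to 532, 350 and 386 CPM in hormone libraries 1, 2 and 3, against 146, 326 and 224 CPM in controls 1, 2 and 3, with 0 of 13 tested called by edgeR (8 higher at an unadjusted p under 0.05; DESeq2 called 5 higher) and a median of 0.97. Cd68 (1.40, edgeR adjusted p = 0.0859), Itgax (1.16, adjusted p = 0.103) and Flt3 (1.44, adjusted p = 0.13) had the lowest p-values. Cd14 (0.11, edgeR adjusted p = 0.836) and Zbtb46 (0.04, adjusted p = 0.951) hardly differed between groups. Siglech, which was not tested, had 34, 4 and 6 counts in hormone libraries 1, 2 and 3, against 0, 2 and 0 counts in controls 1, 2 and 3. Beside these lists, 12.1% of all genes were higher at an unadjusted p under 0.05 in edgeR. DESeq2 called 6.47% of all genes higher.

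The 12 lymphocyte markers were low, at 38.7, 18.7 and 16.3 CPM in sum in hormone libraries 1, 2 and 3, against 20.3, 12.7 and 12.0 CPM in controls 1, 2 and 3, with overlap. Of 7 tested, 0 were called by edgeR (2 higher at an unadjusted p under 0.05) or by DESeq2, and the median log2 fold change was 0.71. The T cell receptor subunits Cd3d (1.20, edgeR adjusted p = 0.194), Cd3e (1.14, adjusted p = 0.202) and Cd3g (0.71, adjusted p = 0.229) had the lowest p-values, and the B cell marker Cd79b was at 0 in all controls. Receptors of MHC and related molecules had 0 of 6 tested called by edgeR (4 higher at an unadjusted p under 0.05; DESeq2 called Klrk1 higher) and a median of 1.15, with Klrk1 (1.34, edgeR adjusted p = 0.0568), Lilrb4 (1.29, adjusted p = 0.182) and Lag3 (1.07, adjusted p = 0.19) lowest in p.

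Interferon-stimulated genes summed to 1677, 708 and 516 CPM in hormone libraries 1, 2 and 3, against 343, 466 and 377 CPM in controls 1, 2 and 3, without overlap and with hormone 1 far above the rest. All 16 had log2 fold changes above 0, with a median of 1.54 and 0 calls in edgeR (11 higher at an unadjusted p under 0.05, where 12.1% of all genes were). DESeq2 called 7 higher, where it called 6.47% of all genes higher. Usp18 (2.09, edgeR adjusted p = 0.059), Cxcl9 (1.72, adjusted p = 0.062) and Rsad2 (2.99, adjusted p = 0.0964) had the lowest p-values. The part of the interferon-stimulated genes in the MHC values was not tested.

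**Figure D5:**
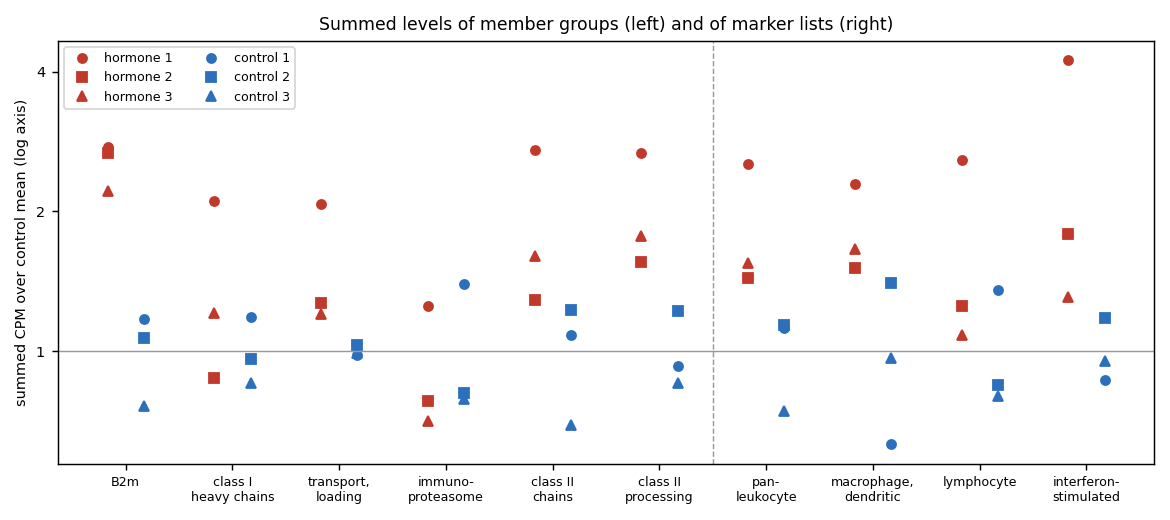
Summed CPM of the 6 member groups (left of the dashed line) and of 4 marker lists (right) in each library, divided by the mean of the 3 controls, on a log axis, with hormone libraries (red) left of controls (blue). B2m is at 2.75, 2.68 and 2.21 in hormone libraries 1, 2 and 3, while in class II chains (2.72, 1.29 and 1.60) and pan-leukocyte markers (2.53, 1.44 and 1.55) hormone 1 stands apart.

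The tissue label was checked against epithelial markers. Tgm4, the prostate transglutaminase, was present in all libraries, while Pbsn was at 0 in all 6. Of 8 epithelial markers tested, 1 was called higher and 0 lower by edgeR, and the median log2 fold change was 0.40. At an unadjusted p under 0.05 in edgeR 4 were higher and 1 lower, and DESeq2 called 3 higher and 0 lower. Krt8, a luminal keratin, rose (0.95, edgeR adjusted p = 0.0164), and Krt18 (0.41, adjusted p = 0.107) and Epcam (0.50, adjusted p = 0.11) followed by p-value. The basal keratin Krt5 was the 1 on the lower side, at 84.5, 114 and 141 CPM in hormone libraries 1, 2 and 3, against 266, 120 and 174 CPM in controls 1, 2 and 3 (log2 fold change -0.72, edgeR adjusted p = 0.213). Krt14, also a basal keratin, went the other way with overlap between groups (log2 fold change 0.50, edgeR adjusted p = 0.484). It had 67.3, 61.8 and 91.0 CPM in hormone libraries 1, 2 and 3, against 87.6, 26.9 and 41.6 CPM in controls 1, 2 and 3. Stromal markers had 0 of 6 called by edgeR (0 higher and 1 lower at an unadjusted p under 0.05) or by DESeq2 and a median of -0.36, with Dcn (-0.68, edgeR adjusted p = 0.174), Acta2 (-0.48, adjusted p = 0.315) and Myh11 (-0.51, adjusted p = 0.373) lowest in p. Of the seminal vesicle markers only Semg1 was tested, at 4570, 8971 and 3481 CPM in hormone libraries 1, 2 and 3, against 3855, 1074 and 23733 CPM in controls 1, 2 and 3 (edgeR adjusted p = 0.674), and Svs4 was at 0 in all 6. Pate4, which did not pass the filter on low counts, was at 0 counts in all 3 hormone libraries, against 3066, 763 and 1 counts in controls 1, 2 and 3, so controls differed widely from each other. The part of these cells in the MHC values was not tested.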

How the data were processed

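RNA was isolated with the RNeasy mini kit and made into paired-end TruSeq libraries, per the labels' protocols. TopHat, Bowtie2 and HTSeq are named in the submitters' processing notes; their versions, the genome build, the annotation, strand use and the treatment of reads with several matches have no entry in the sources used here (not given). The authors deposited 1 table with raw counts and FPKM per gene for all 6 libraries.

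The main test was run on the counts in R 4.3.3 with edgeR 4.0.16 (filterByExpr with a minimum count of 10 and a minimum total of 15, TMM scaling, robust quasi-likelihood F-test, two-sided, 3 hormone against 3 control libraries, no covariate), with Benjamini-Hochberg adjustment over 14003 genes. The common BCV was 22.7%. The deposited FPKM values, on which depth is unknown by themselves, served for levels per length and for ratios. Standard errors were derived from the fold change and its F statistic. Counting limits (3 counts) cover counting error only.

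The members, the 13 lists of related genes and cell markers, and the tests were chosen with earlier results of these data known. Values are given for members that were called, for B2m and Cd74 and for members with a mean FPKM of at least 5, and from each list for the 3 genes with the lowest p. RT1-T24-1, RT1-CE1, RT1-CE3, RT1-N2, RT1-M6-1, RT1-DOa, RT1-DOb, Ciita, Psmb8, Ifng, Nlrc5, Siglech, Cd14, Zbtb46, Cd79b, Tgm4, Pbsn, Krt5, Krt14, Svs4, Pate4 and the rows outside the rule were named after their values were seen. Alternatives were other scalings, DESeq2 1.42.0, other filters, limma 3.58.1 on log2(FPKM + pseudocount), a replicate block and leaving out each library. Adding near-identical DM rows was chosen after seeing the data.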

Additional observations from a re-analysis of the deposited data

How the results depend on the processing

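The count of members called higher was 1 under every other scaling, without the low-count filter, with a mean FPKM of at least 5, and with near-identical rows added. It was 10 with the DESeq2 test, 0, 0 and 0 with limma on log2(FPKM + 1), log2(FPKM + 0.1) and log2(FPKM + 5), and 0 to 1 when 1 library was left out. The count called lower was 0 under each of these. Over all genes, 334 were called higher and 124 lower; DESeq2 gave 906 and 618, a mean FPKM of at least 5 gave 161 and 70, limma gave 207 higher with log2(FPKM + 1) and 163 higher with log2(FPKM + 5), and leaving out 1 library gave 51 to 313 higher and 12 to 156 lower. With library totals only, 259 were higher and 230 lower, so 53.0% of calls were higher, against 72.9% in the reported fit. That scaling moved the median log2 fold change to -0.13 over all genes and 0.50 over the members. The cause of these changes was not tested.

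The replicate block, which uses replicate numbers shared by both groups, kept B2m (adjusted p = 0.0459) and gave 228 genes higher and 80 lower. Over all genes tested, same-numbered libraries showed little shared deviation (r = 0.0829, -0.057 and 0.0698 for numbers 1, 2 and 3). With 3 libraries a group, these values cannot settle whether the libraries were paired.

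Fold changes of 12 members changed sign under some setting, and each of the 12 was uncalled. Psmb8 was -0.076 with library totals only and -0.0011 with limma on log2(FPKM + 5). RT1-CE1 was 0.0022 without the filter, 0.00093 with limma on log2(FPKM + 0.1) and 0.11 with the replicate block. RT1-CE10 was -0.12 and -0.65 with limma on log2(FPKM + 1) and log2(FPKM + 0.1) and -0.030 with the block, and RT1-CE4 was -0.0072 with limma on log2(FPKM + 0.1). With 1 library left out, log2 fold changes ran from -0.031 to 0.40 for Psmb10, -0.32 to 0.81 for Psmb8, -0.062 to 0.66 for Psmb9, -0.31 to 0.78 for RT1-A1, -0.34 to 0.79 for RT1-CE1, -0.19 to 1.75 for RT1-CE10, -0.071 to 0.98 for RT1-CE3, -0.32 to 0.62 for RT1-CE5, -0.059 to 1.04 for RT1-M6-1, -0.059 to 0.57 for RT1-T24-4 and -0.058 to 0.60 for Tap2. With 3 libraries a group, rows such as RT1-CE10 (BCV 101%) allow no firm statement at this depth and spread.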
